A study of Mus musculus with 28 samples.

Results

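The voltage-gated and potassium ion channel genes were taken from the series by symbol, as every gene that starts with Kcn and a letter from a to v, with Scn, a number and a or b, with Cacna1 or Cacna2, or with Cacnb1 to Cacnb4. The rule found 129 of the 23995 genes listed. They were 40 subunits of voltage-gated potassium channels, 17 potassium auxiliary subunits, 15 inward rectifiers (Kcnj), 14 2-pore potassium channels (Kcnk), 8 channels gated by calcium or sodium (such as Kcnma1 and Kcnn2), 10 sodium alpha and 4 sodium beta subunits, 10 calcium alpha1, 4 calcium alpha2delta and 4 calcium beta subunits, and 3 RNAs that encode no channel (Kcnq1ot1, Kcnd3os, Kcnmb4os1).

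The study used axon-TRAP, in which ribosomes carrying an HA tag are precipitated together with the mRNA they hold. All mice carried the RiboTag allele of Rpl22, which yields tagged ribosomes after recombination by Cre. The Pax6-alpha-Cre transgene acts in progenitors of the peripheral retina, so that in Cre-positive mice the tagged ribosomes of the superior colliculus (SC) lie in axons of retinal ganglion cells (RGCs), and Cre-negative littermates hold no tagged ribosomes and give the background of the precipitation. SC of either genotype and Cre-positive retina were sequenced at 4 ages (embryonic day E17.5, postnatal days P0.5 and P7.5, and adult), with 2 replicates a group and 24 libraries in all. All mice were of the C57BL/6 background. The retina libraries came from homogenized eyes, 3 in a pool, and each SC library from 6 SCs, so a replicate is a pool. The replicates are described as biological in the study's methods, and the p-values measure the spread between pools. A further 4 adult Cre-positive libraries, 2 of SC and 2 of retina, were deposited as read counts, 1 of each pair after ribosome run-off and 1 without it. In run-off, ribosomes that are elongating finish and leave their mRNA before the precipitation while new initiation is blocked.

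Neurons set their excitability with these channels. Sodium channels of the Scn alpha family carry the upstroke of the action potential, voltage-gated potassium channels such as the Kcna (Kv1), Kcnc (Kv3) and Kcnd (Kv4) families repolarize the membrane, the 2-pore channels and inward rectifiers hold the resting potential, and calcium channels couple the spike to transmitter release. In a myelinated optic axon, sodium channels gather at the nodes of Ranvier and Kv1 channels beside them, whereas before myelination they are spread along the fibre.

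Levels are given in FPKM, the number of fragments of a gene scaled to its transcript length and to the size of the library. The files give no library totals, and the smallest FPKM steps put the depth between 408527 fragments (E17.5 Cre-negative replicate 1) and 13851100 (E17.5 Cre-negative replicate 2), with 548197 to 2502330 in the adult SC. At those depths, 3 fragments of a 2-kb transcript are worth between 0.108 and 3.67 FPKM. A value of 0 may be an estimate that failed, so genes are called listed at 0. The replicates of a group correlated at 0.923 and 0.916 in log2(FPKM + 1) in Cre-positive and Cre-negative SC at P0.5, and at 0.176 to 0.68 in the SC of the other stages. Of 7 RGC markers, all had a value above 0 in E17.5 and P0.5 retina and 6 in P7.5 and adult retina. In Cre-positive SC 3 to 5 of them did, and in Cre-negative SC also 3 to 5. Pou4f1 made up most of their summed level, also in Cre-negative SC, and Rbpms, a pan-RGC marker, was at 0 in every SC library. All 6 photoreceptor markers had a value above 0 in P7.5 and adult retina, where their summed level reached 534 FPKM. The same held for adult Cre-negative SC, with sums of 79.5 and 1.24 FPKM in replicates 1 and 2. In adult Cre-positive SC 5 of the 6 had a value above 0, with sums of 2.91 and 5.01 FPKM.

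Channel genes were sparse in every source. Of the 129, 50 were listed at 0 in all 24 libraries, 79 had a value above 0 in any library, 50 reached 1 FPKM in any library, and 20 of these did so in 1 library only. The genes listed at 0 throughout included Kcnq3, a voltage-gated potassium channel of neurons, the cardiac and muscle genes Kcnq1 and Cacna1s, and 10 of the 15 inward rectifiers. Sodium alpha subunits of sensory neurons and muscle, Scn10a, Scn11a and Scn4a, were also at 0. Scn4b, a beta subunit, was at 0 too.

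In the SC, 30 channel genes reached 1 FPKM in a Cre-positive library, 37 in a Cre-negative library and 21 in both genotypes. That left 9 that did so in Cre-positive SC alone and 16 in Cre-negative SC alone. This split was not counted over all genes, so nothing particular to channel genes is read from it. A level of 1 FPKM in both replicates of Cre-positive SC was reached by 5, 10, 4 and 3 channel genes from the youngest to the oldest stage. In 1 replicate only it was reached by 13, 2, 7 and 7. Over all genes these counts were 1146, 3568, 975 and 715 in both replicates and 2607, 518, 1442 and 1501 in 1 only. For channel genes in Cre-negative SC the same counts were 4, 8, 2 and 2 in both replicates and 20, 0, 9 and 12 in 1 only. Over all genes they were 1355, 1475, 1087 and 516 in both replicates and 3481, 282, 1716 and 2295 in 1 only. Retina held 76 channel genes above 0 but 18 at 1 FPKM. In both replicates of retina, 2, 3, 2 and 3 channel genes reached it, beside 1619, 1449, 864 and 1098 of all genes. Over the 4 stages, 56.9% of the entries of channel genes in Cre-positive SC rested on 1 replicate, against 48.7% over all genes.

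**Figure D1:**
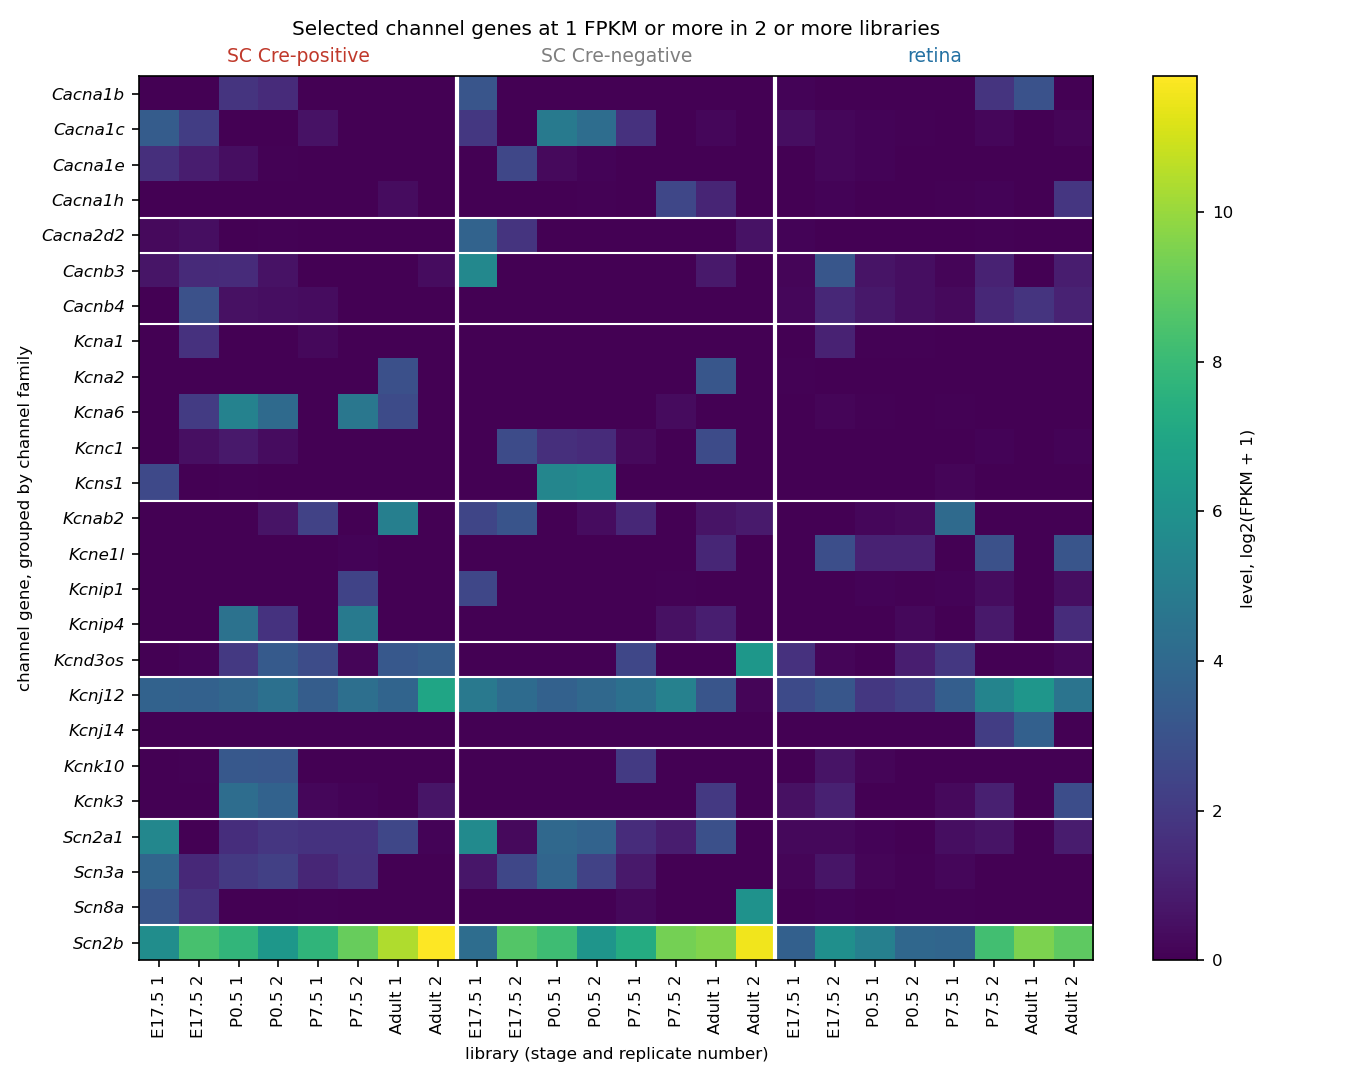
Level of the channel genes described in the text that reached 1 FPKM in 2 or more of the 24 libraries, as log2(FPKM + 1), with libraries in columns (stage and replicate number, by source) and genes in rows by channel family. Scn2b and Kcnj12 are filled in nearly every column, most other rows are filled in scattered single libraries, and the P0.5 columns of SC show pairs of replicates with the same genes.

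Which mRNAs come with tagged axonal ribosomes was asked by setting SC of the 2 genotypes against each other. Tests used limma on log2(FPKM + 1) with p-values adjusted over all 5983 genes tested in the 16 SC libraries, of which 26 were channel genes. At P0.5, 3 of the 26 were higher in Cre-positive SC, all potassium channels: Kcnk3, Kcnk10 and Kcna6. The background was high, since 28.1% of all genes were higher and 4.35% lower. The median difference was 0.78 over all genes and 0 over the 26 channel genes. A further 2 were lower, Kcns1 and Cacna1c.

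Kcnk3 (TASK-1, an acid-sensitive leak channel, chr5:30588170-30625271 in mm10, plus strand) stood at 17.9 and 12.1 FPKM in Cre-positive SC at P0.5 and was listed at 0 in both Cre-negative libraries. Both P0.5 values rested on some 349 and 373 estimated fragments. The difference on the log2(FPKM + 1) scale was 3.97 ± 0.61 (SE, adjusted p = 0.000448 in limma). Kcnk10 (TREK-2, a leak channel opened by stretch, heat and lipids, chr12:98429437-98578310, minus strand) was at 8.54 and 8.28 FPKM against 0 and 0, a difference of 3.23 ± 0.55 (SE, adjusted p = 0.000922 in limma). The groups did not overlap for either gene. Of the exon bases of Kcnk3, 5.76% are shared with Gm9899 on the other strand, and Kcnk10 overlaps no other gene's exons. Each passed the filter on low values (1 FPKM in at least 2 libraries) through these 2 libraries and 1 Cre-negative library of another stage, so that a difference at P0.5 was bound to appear, and their count among tested genes supports nothing. All such differences against a group at 0 depend on the 1 added before the logarithm.

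Kcna6 (Kv1.6, a delayed rectifier of axons, chr6:126708329-126740674, minus strand) was at 36.2 and 15.9 FPKM in Cre-positive SC at P0.5 against 0 and 0.0148, a difference of 4.64 ± 1.41 (SE, adjusted p = 0.0276 in limma). The call was lost when any of the 4 libraries was left out. Among SC libraries, Kcna6 reached 1 FPKM in Cre-positive ones alone. It thus passed the filter only through the genotype in which it was high, and its count among tested genes supports nothing. Of its exon bases, 39.6% are shared with the antisense transcript Gm26673, and reads of the 2 strands cannot be told apart because no source used here states strand-specific counting.

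Kcns1 (Kv9.1, a silent subunit that modifies other potassium channels, chr2:164163619-164171113, minus strand) went the other way, with 0.0576 and 0 FPKM in Cre-positive and 41.3 and 49.9 FPKM in Cre-negative SC at P0.5. Its difference was -5.50 ± 0.73 (SE, adjusted p = 0.000156 in limma). Kcns1 passed the filter through these 2 Cre-negative libraries and 1 Cre-positive library of E17.5, so its difference at P0.5 was bound to appear as well. Cacna1c (Cav1.2, an L-type calcium channel, chr6:118587240-119196418, minus strand) was at 0 and 0.0178 against 28.0 and 17.48 FPKM, a difference of -4.52 ± 0.86 (SE, adjusted p = 0.00185 in limma). The call for Cacna1c was lost without either Cre-positive replicate, whereas those for Kcnk3, Kcnk10 and Kcns1 held without any one of the 4 libraries. The P0.5 levels of Kcns1 and Cacna1c were thus found in SC without tagged ribosomes and hardly in SC with them.

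**Figure D2:**
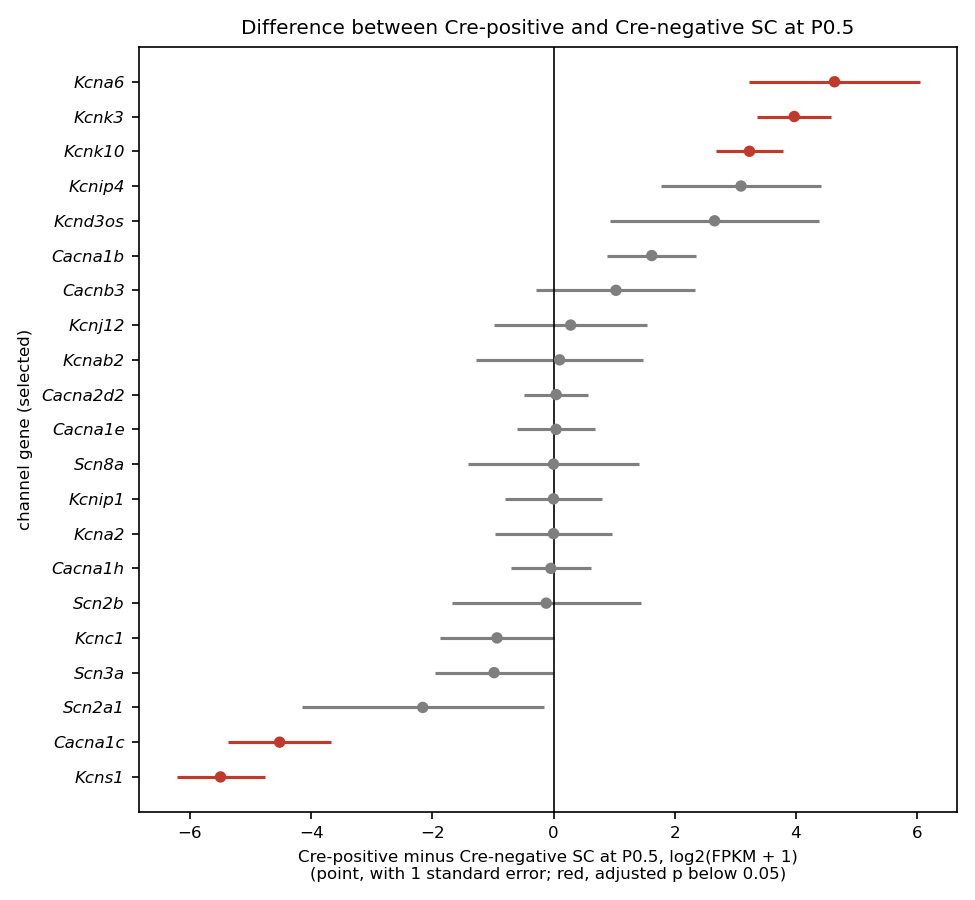
Difference of the tested channel genes described in the text at P0.5, Cre-positive minus Cre-negative SC, in log2(FPKM + 1), with bars of 1 standard error and genes past an adjusted p of 0.05 in red. Kcna6, Kcnk3 and Kcnk10 lie on the right, Cacna1c and Kcns1 on the left, and the rest have wider or smaller differences that did not pass.

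The other genes at P0.5 did not pass. Kcnip4, a KChIP subunit that binds Kv4 channels, was at 21.2 and 2.30 FPKM in Cre-positive SC and listed at 0 in both Cre-negative libraries, a difference of 3.09 ± 1.31 (SE, adjusted p = 0.105 in limma). The Cre-positive replicates lay far apart. Among SC libraries, Kcnip4 reached 1 FPKM in Cre-positive ones alone, so the filter favoured a higher value with Cre. Cacna1b (Cav2.2, the N-type channel of presynaptic terminals) was at 2.43 and 1.76 FPKM against 0 and 0 (adjusted p = 0.128 in limma). The sodium alpha subunits of the developing axon had lower values in Cre-positive SC without passing: Scn2a1 (Nav1.2) was at 1.94 and 2.63 against 14.7 and 12.5 FPKM, and Scn3a (Nav1.3) at 2.91 and 3.76 against 13.3 and 4.08 FPKM.

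A fit to the 4 SC libraries of P0.5 alone, in which 14 channel genes could be tested, called 9 of them, beside 68% of all genes in that fit, among the added ones Cacna1b and Kcnd3os as higher and Scn2a1 as lower. The 26-gene fit shares its estimate of spread with the other stages, whose replicates differed more.

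Markers of other cells differed between the same P0.5 libraries. The summed astrocyte list (3 of 5 genes above 0 in Cre-positive, 2 of 5 in Cre-negative) was at 24.3 to 34.5 FPKM in Cre-positive and 5.77 to 10.6 in Cre-negative SC, with Gfap and Aqp4 at 0 in all 4. The summed Mueller glia list (2 of 4 and 1 of 4) was at 22.2 to 97.6 and 0.394 to 2.66 FPKM, with Rlbp1 and Aqp4 at 0. Vim made up most of its Cre-positive sum, at 97.5 and 19.5 FPKM against 0 and 0 in Cre-negative SC. The microglia list was at 0 in Cre-positive and 43.2 to 77.0 FPKM in Cre-negative SC, by C1qa alone, with Cx3cr1 and Csf1r at 0. The bipolar list was at 5.04 and 5.45 FPKM in Cre-positive and at 0 in Cre-negative SC, by Prkca alone. Oligodendrocyte, photoreceptor and inhibitory neuron markers were at 0 in all 4 libraries. The RGC list stood at 105 to 288 FPKM in Cre-positive and 199.7 to 757 in Cre-negative SC. The part of these markers in the channel differences was not tested. In pooled tissue, more tagged axons and more of an mRNA per axon cannot be told apart.

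At the other stages no channel gene passed between the genotypes. At E17.5, where 1.57% of all genes passed, 2 of the 26 channel genes had an unadjusted p under 0.05 in limma, beside 363 of the 5983 genes. Of these channel genes, Cacna2d2 is an auxiliary subunit that raises calcium channel surface levels. It was at 0.243 and 0.375 FPKM in Cre-positive and 12.4 and 2.48 in Cre-negative SC (adjusted p = 0.0602 in limma). These Cre-negative libraries alone took Cacna2d2 past the filter, so a lower value with Cre was bound to appear.

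At P7.5, 0 of 5983 genes passed in limma (0% of those tested) and 0 channel genes had an unadjusted p under 0.05, against 84 of all genes. In the adult 0.15% of all genes passed. Kcnj12 alone among channel genes had an unadjusted p under 0.05, beside 184 of all genes. It was at 13.1 and 123.7 FPKM in Cre-positive and 7.56 and 0.104 in Cre-negative SC (adjusted p = 1 in limma).

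Those counts moved when 1 library was left out. Without Cre-positive replicate 2 at E17.5, 3 channel genes were called higher, Kcns1 among them. Without Cre-negative replicate 2 at E17.5, Cacna1b and Cacnb3 were called lower. Without Cre-negative replicate 1, Cacna1h was called lower at P7.5 and Scn8a in the adult. In each case the remaining library of the reduced group is assumed to vary like the other groups.

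Over development within Cre-positive SC, the leak channels Kcnk3 and Kcnk10 rose from E17.5, when axons elongate, to P0.5, when they branch, and fell again by P7.5, when they are pruned. Kcnk3 was at 0 and 0 FPKM at E17.5, 17.9 and 12.1 at P0.5, 0.145 and 0.0755 at P7.5, and 0 and 0.599 at the adult stage. Kcnk10 was at 0 and 0.0328, then 8.54 and 8.28, and at 0 in all 4 later FPKM libraries. The adult SC library without run-off, deposited as read counts, held 36 reads of Kcnk10. From E17.5 to P0.5 the differences were 3.97 ± 0.61 for Kcnk3 and 3.21 ± 0.55 for Kcnk10 (SE, adjusted p = 0.000513 and 0.0011 in limma), while 25.1% of all genes were higher and 1.81% lower. Within Cre-positive SC both genes reached 1 FPKM only at P0.5, so the filter favoured this rise and the later fall. Both steps rest on the same P0.5 Cre-positive libraries, and the count of these calls supports nothing.

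Cacna1c was the 1 channel gene that fell over this interval, from 9.96 and 3.49 FPKM to 0 and 0.0178, a difference of -2.80 ± 0.86 (SE, adjusted p = 0.0319 in limma). It lost its call without either P0.5 replicate or without E17.5 replicate 1. Without E17.5 replicate 2 the number of channel genes called went from 3 to 6, with Kcns1 among those added as lower.

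From P0.5 to P7.5 the differences were -3.82 ± 0.61 for Kcnk3 and -3.23 ± 0.55 for Kcnk10 (SE, adjusted p = 0.000661 and 0.00102 in limma), beside 29.2% of all genes lower and 0.501% higher. Kcna6 and Kcnip4 did not pass that test. P7.5 replicate 2 held 25.0 and 27.6 FPKM of them, and replicate 1 listed both at 0. Without P7.5 replicate 2 both were called lower. From P7.5 to the adult no channel gene passed, where 0.0836% of all genes did. Of the 26, 0 had an unadjusted p under 0.05 in limma, against 128 of all genes.

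Cre-negative SC had its own course for the genes that were lower in Cre-positive SC. Kcns1 was at 41.3 and 49.9 FPKM at P0.5 and at 0 in the other 6 Cre-negative libraries. Cacna1c was at 2.80 and 0 FPKM at E17.5, 28.0 and 17.48 at P0.5, 2.22 and 0 at P7.5, and 0.143 and 0 in adult SC.

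The effect of Cre was therefore compared between neighbouring stages in 1 model. From E17.5 to P0.5 it rose for 4 channel genes, Cacna1b, Cacna2d2, Kcnk3 and Kcnk10, and fell for 3, among them Cacna1c and Kcns1, beside 23.9% of all genes higher and 3.23% lower. From P0.5 to P7.5 it rose for Cacna1c and Kcns1 (2.74% of all genes) and fell for Kcnk3 and Kcnk10 (18.7% of all genes). Cacna1b, Cacna2d2, Kcnk3, Kcnk10 and Kcns1 passed the filter mainly through libraries that set these changes, so their count supports nothing. Both of these comparisons rest on the same 4 P0.5 libraries. Without P0.5 Cre-positive replicate 1, 1 channel gene stayed called in the first (Kcns1) and 0 in the second.

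**Figure D3:**
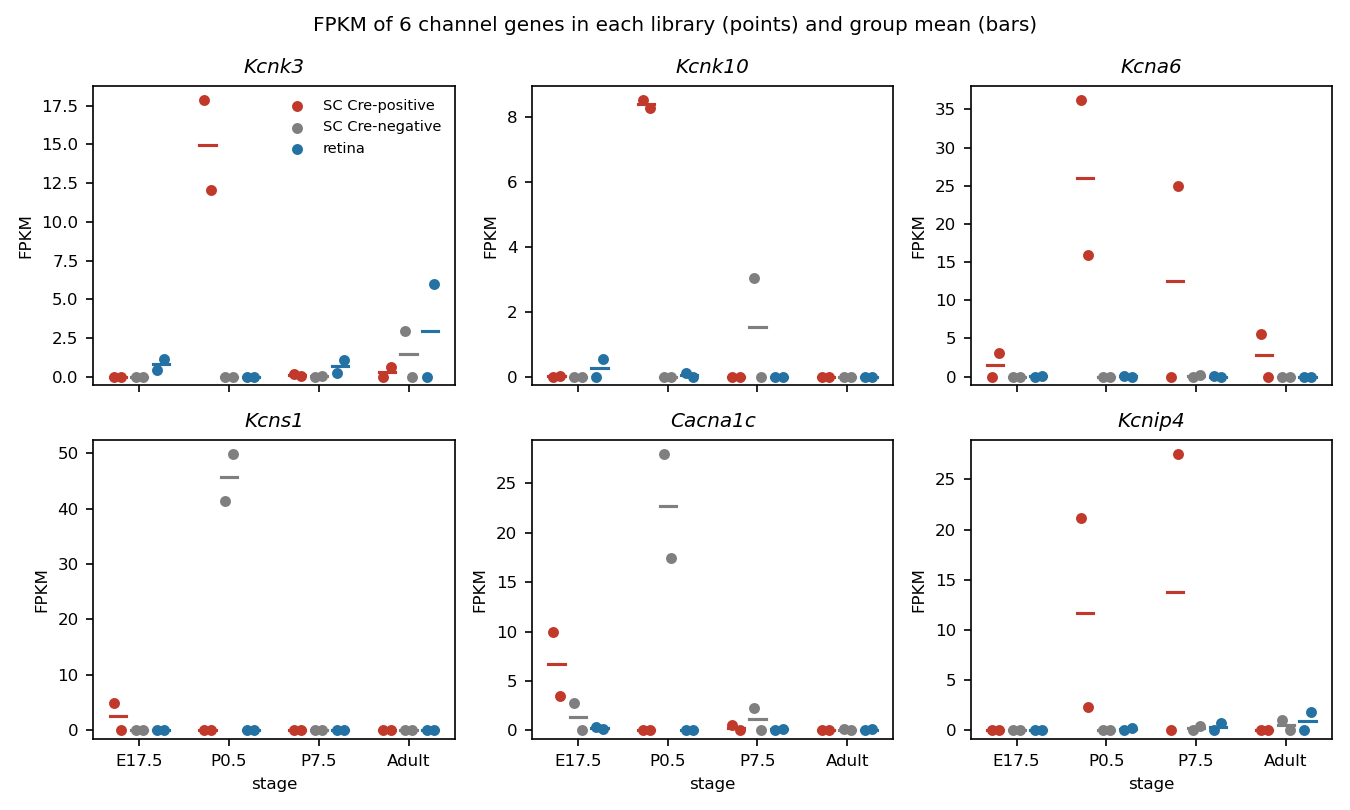
FPKM of 6 channel genes in each library (points) and as group mean (bars), by stage, in the 3 sources by colour. Kcnk3 and Kcnk10 peak in Cre-positive SC at P0.5 and Kcns1 and Cacna1c in Cre-negative SC at P0.5, while Kcna6 and Kcnip4 also have 1 high Cre-positive library at P7.5.

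The most abundant channel mRNA was Scn2b (chr9:45117782-45130070, plus strand), the beta2 subunit that links sodium channels to the cell surface and to adhesion molecules. It ranked first among channel genes in 15 of 16 SC libraries and 7 of 8 retina libraries, and made up between 23.6% and 95.1% of the summed channel FPKM in Cre-positive SC and between 7.67% and 95.6% in Cre-negative SC. In Cre-positive SC its levels were 55.3 and 329.7 FPKM at E17.5, 217 and 75.8 at P0.5, 211 and 537 at P7.5, and 1365 and 3601 in adult libraries. In Cre-negative SC they were 17.7 and 408, then 279.9 and 69.5, then 155 and 658, then 771 and 3060 FPKM. Scn2b was thus also high without tagged ribosomes. Between libraries of the same stage and number, the Cre-positive level was 0.776 to 3.12 times the Cre-negative one and above it in 5 of 8.

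Retina held 11.5 and 58.0 FPKM of Scn2b at E17.5, 34.7 and 14.2 at P0.5, 13.2 and 303 at P7.5, and 722 and 469 in adult libraries. The 4 adult SC libraries (771 to 3601 FPKM) all lay above the 12 earlier SC libraries (17.7 to 658 FPKM). This split was chosen after the values were seen and is a description. Within Cre-positive SC, the difference between adult and P7.5 was 2.71 ± 1.56 (SE, adjusted p = 1 in limma). In adult SC, Scn2b ranked from 12 to 41 among all genes. The 4 adult SC libraries were shallower than all others but 1.

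Kcnj12 (Kir2.2, an inward rectifier, chr11:61022564-61071131, plus strand) had a value above 0 in all 24 libraries too. It stayed between 10.2 and 35.6 FPKM in the 12 SC libraries of E17.5 to P7.5, of either genotype. In the adult SC it ranged from 0.104 (Cre-negative replicate 2) to 123.7 FPKM (Cre-positive replicate 2). Retina was at 2.73 to 7.88 FPKM at E17.5 and P0.5 and at 10.7 to 73.4 FPKM at P7.5 and in the adult. Kcnj12 did not pass between later and perinatal retina, where its unadjusted p was not under 0.05 in limma. Neither Scn2b nor Kcnj12 passed the threshold between the genotypes at any stage.

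**Figure D4:**
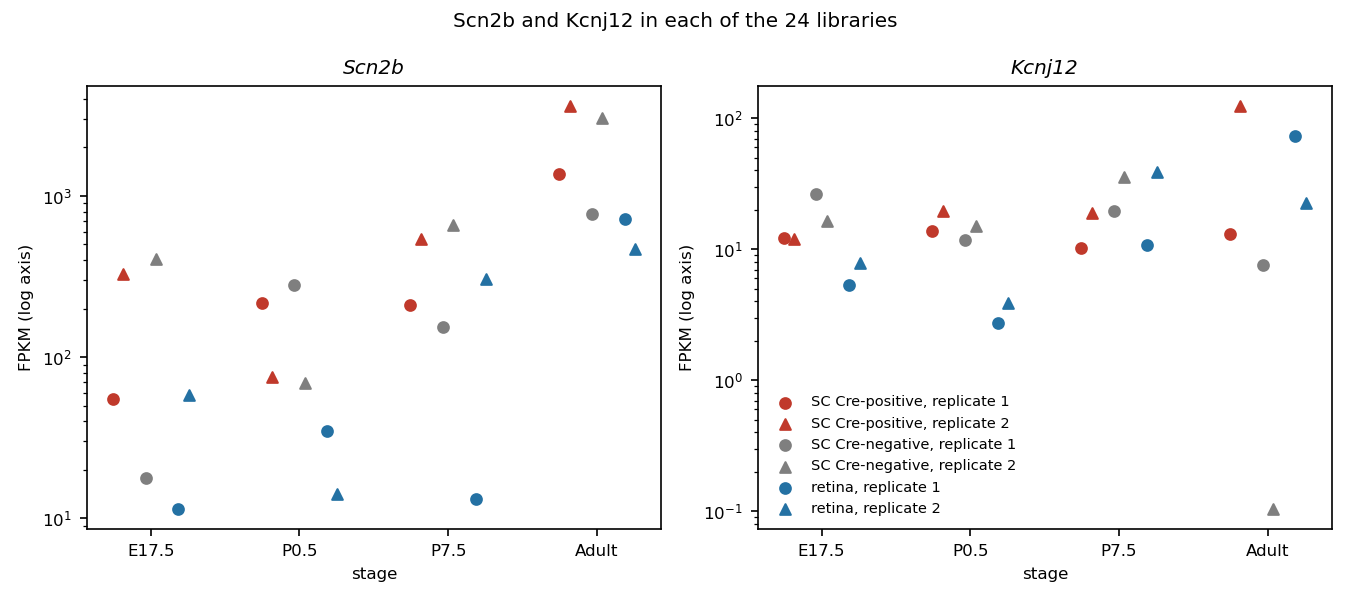
FPKM of Scn2b and Kcnj12 on a log axis in each of the 24 libraries, by stage, with colour for the source and circles and triangles for replicates 1 and 2. Cre-positive and Cre-negative SC overlap at each stage for Scn2b, whose 4 adult SC points (771 to 3601 FPKM) lie above all earlier SC points.

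Among the pore-forming sodium subunits, Scn2a1 and Scn3a reached 1 FPKM in both replicates of both genotypes of SC at P0.5. Scn2a1 was at 43.1 and 0 FPKM in Cre-positive and 48.6 and 0.249 in Cre-negative SC at E17.5, and at 2.34 and 2.27 against 1.85 and 0.914 FPKM at P7.5. In the adult it was at 4.73 and 0.0853 against 6.49 and 0 FPKM. Scn3a, which declines as neurons mature, was at 13.3 and 1.60 FPKM in Cre-positive and 0.621 and 4.73 FPKM in Cre-negative SC at E17.5, and at 1.40 and 2.24 against 0.740 and 0 at P7.5. Adult SC libraries listed Scn3a at 0 in all 4.

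Scn8a (Nav1.6, the alpha subunit of mature nodes) was at 8.06 and 2.26 FPKM in Cre-positive SC at E17.5 and at 0 in both Cre-negative libraries. In the adult it was at 0 in both Cre-positive libraries and at 0 and 64.0 FPKM in Cre-negative SC. The library with 64.0 FPKM also held 1019 FPKM of Mbp, a myelin gene of oligodendrocytes, against 0 in the other Cre-negative and 81.7 and 109.6 in the Cre-positive libraries, and the part of this in the Scn8a value was not tested. Scn1a reached 2.75 FPKM in 1 E17.5 Cre-negative library. Neither passed a test between genotypes.

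Kv1 subunits were seen in few libraries. Kcna2 (Kv1.2) was at 6.40 FPKM in adult Cre-positive replicate 1 and 7.81 FPKM in adult Cre-negative replicate 1, with 0 in both of the second replicates. Kcnab2, the beta subunit that accompanies Kv1 to axons, was at 33.3 and 0 FPKM in adult Cre-positive and 0.528 and 0.788 FPKM in adult Cre-negative SC. Kcna6 was at 5.57 and 0 FPKM in adult Cre-positive SC, and at 0 in adult Cre-negative SC. Kcna1 (Kv1.1) reached 2.26 FPKM in 1 E17.5 Cre-positive library.

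Several genes were high in a single library. In E17.5 Cre-positive replicate 1, Kcnj9 was at 32.0 and Kcnma1 (the BK channel) at 12.3 FPKM, and replicate 2 listed both at 0. In E17.5 Cre-negative replicate 1, the shallowest library, the calcium channel subunits Cacnb3, Cacnb1, Cacna2d1 and Cacna1b were at 45.4, 16.3, 10.2 and 7.58 FPKM, and replicate 2 held at most 0.559 FPKM of any of the 4. Kcnj10 (Kir4.1), the potassium channel of astrocytes and Mueller glia, was at 165 FPKM in adult Cre-negative replicate 1 and at or below 0.189 FPKM in the other 23. The astrocyte list summed to 6.53 FPKM in that library, with Aqp4 at 0.

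Kcnd3os, an antisense RNA of Kcnd3, was at 75.3 FPKM in adult Cre-negative replicate 2 and at 8.47 and 10.3 FPKM in adult Cre-positive SC. It shares 12.2% of its exon bases with Kcnd3.

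In retina no channel gene passed between stages. Of 9 channel genes tested among 4080, 0 were called between E17.5 and adult, where 0.343% of all genes were, and 0 between the perinatal stages and the 2 later ones, where 0.956% were. Scn2b came nearest, with a difference of 4.43 ± 1.45 between adult and E17.5 (SE, adjusted p = 0.259 in limma). Between later and perinatal retina it was 2.96 ± 1.03 (SE, adjusted p = 0.213 in limma), which passed without P7.5 replicate 1. Kcnj14, an inward rectifier, was at 0 in all 4 perinatal retina libraries and at 0, 3.47, 11.4 and 0 FPKM in the 4 later ones (adjusted p = 0.506 in limma). Median-ratio scaling moved the median of all genes by -0.234 in the later against perinatal comparison.

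Channels of the outer retina were low in the FPKM libraries. Kcnv2, a modifier of photoreceptor potassium channels, reached 0.356 FPKM, Cacna1f, the L-type channel of photoreceptor terminals, reached 0.098 FPKM, and its partner Cacna2d4 reached 0.465 FPKM. All 3 had values above 0 in retina and 0 in every SC library. Kcne1l was at 1.21 and 1.21 FPKM in P0.5 retina, at 6.26, 6.69 and 7.62 FPKM in replicate 2 of the other stages and at 0 in replicate 1 of them.

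Between Cre-positive SC and retina, 30 channel genes were among the 7193 tested. At P0.5, 3 were higher in axons, Kcnk3, Kcnk10 and Kcna6, and 0 were lower. The test shares its Cre-positive libraries with the one against Cre-negative SC. Kcnk10 and Kcna6 stayed below 1 FPKM in every retina library, so they passed the filter only through SC libraries. Their count supports nothing here either. Of all genes 26.4% were higher and 1.49% lower, and median-ratio scaling moved the median of all genes by 0.128. Retina held 0 and 0 FPKM of Kcnk3, 0.119 and 0 of Kcnk10, and 0.0495 and 0 of Kcna6 at P0.5, against the axonal values above. The differences were 3.97 ± 0.79 for Kcnk3, 3.15 ± 0.50 for Kcnk10 and 4.61 ± 1.16 for Kcna6 (SE, adjusted p = 0.00103, 0.000112 and 0.00639 in limma). Without P0.5 Cre-positive replicate 1, the call for Kcna6 was lost, and without replicate 2 Kcnip4 was added.

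No channel gene passed at the other stages, where the share of all genes that did was 1.32% at E17.5, 0% at P7.5 (0 of 7193, with 212 at an unadjusted p under 0.05) and 0.0973% in adult samples. Unadjusted p-values under 0.05 in limma were found for 5 of the 30 channel genes at E17.5, beside 720 of the 7193 genes. Cacna1c, Cacna1e and Scn3a were among the 5, all with higher values in SC. At P7.5 they were found for 0 channel genes, and in the adult for 2, beside 560 of the 7193 genes. Without E17.5 Cre-positive replicate 2, 5 channel genes were called higher in SC at E17.5.

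A list of 35 genes that anchor, cluster or traffic these channels or carry related currents was followed beside them, of which 34 were in the files and 17 tested in SC. At P0.5, 4 of the 17 were higher with Cre than without, Nfasc, Sptbn4, Dpp6 and Cacng3, beside 28.1% of all genes. Nfasc and Sptbn4 passed the filter through the 2 P0.5 Cre-positive libraries alone, and Dpp6 and Cacng3 through these and 1 other SC library, so these calls were bound to appear and their count supports nothing. Nfasc (neurofascin), a node and initial segment adhesion molecule, was at 6.65 and 3.85 FPKM against 0 and 0. Dpp6, an auxiliary subunit of Kv4 channels, was at 6.80 and 4.89 FPKM against 0 and 0, a difference of 2.76 ± 0.38 (SE, adjusted p = 0.000218 in limma).

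Dlg2 (PSD-93, a scaffold of Kv1 channels) and Fgf11 were lower, beside 4.35% of all genes. Dlg2 was at 10.7 and 7.16 against 56.7 and 20.1 FPKM, and Fgf11 at 0 and 0 against 43.6 and 25.0 FPKM. Fgf11 reached 1 FPKM in Cre-negative SC libraries alone, so its call was bound to appear and supports nothing. None of the 17 passed at another stage. Between P0.5 Cre-positive SC and retina, 7 of the 17 were higher, beside 26.4% of all genes, and 0 lower, and the same limit holds for Nfasc, Sptbn4 and Dpp6. Ank3, the ankyrin that holds sodium channels at the initial segment and nodes, was at 613 and 409 FPKM in Cre-positive and 368 and 146 in Cre-negative SC at P0.5 and did not pass.

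The run-off experiment had 1 library a condition, so its values have no replicate check and no test. The SC libraries held 349395 reads with and 3262914 without run-off, or 10.7% as many, and the retina libraries 315009 and 4686284, or 6.72%. Per the study's methods, library input was set by the amount of cDNA, and reads were therefore compared unscaled. Intervals below are exact 95% intervals for counting error only, and amplified reads are not independent molecules. A count of 0 allows up to 3 reads.

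In Cre-positive SC, 36 channel genes had a read and 29 of them had fewer with run-off (80.6%, Wilson 95% interval 65.0 to 90.2), beside 84.9% of all genes. Scaled to the total of each library, 23 of 36 were lower (63.9%), against 72.3% of all genes. Of the 24 channel genes with 10 or more reads in either library, 21 had fewer with run-off (87.5%), beside 90.2% of all genes at that level. Of the 21, 12 had no read left, a number that was not counted over all genes.

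Among Kv1 subunits in SC, Kcna2 went from 266 reads to 0 and Kcna1 from 59 to 0, which is at least 88.7-fold and 19.7-fold lower. Kcnab2 went from 285 to 14 reads (4.91% left, 2.65 to 8.38), less than the 10.7% of the whole library. Kcnab3, another Kv beta subunit, fell from 498 reads to 3 (0.602% left, 0.124 to 1.77).

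Sodium channel subunits behaved unequally. Scn8a went from 81 reads to 0, at least 27.0-fold lower. Scn2b went from 24675 to 3294 reads (13.3% left, 12.9 to 13.8), and so kept a larger share of its reads than the library as a whole. It made up 88.5% of channel reads without and 84.5% with run-off.

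Among other channels in SC, Cacnb4, Kcnc4, Kcnip4 and Kcnk10 went from 115, 102, 56 and 36 reads to 0. Kcnj12 (670 to 134 reads, interval 16.5% to 24.1% left), Cacna1c (316 to 71 reads, 22.5% left) and Kcnc1, the fast Kv3.1 (202 to 88 reads, 43.6% left), kept more than the library share. Of the 24, 3 had more reads with run-off, among them Cacna1h (Cav3.2, T-type) with 120 against 0, at least 40.0-fold higher, and Kcnk3 with 30 against 0.

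The SC library without run-off is one more adult Cre-positive SC sample, and several genes with reads in it were listed at 0 in FPKM libraries of the same source. Kcnab3 and Kcnc4 (498 and 102 reads) were listed at 0 in both adult Cre-positive FPKM libraries. Scn8a (81 reads), Cacna1c (316 reads) and Kcnk10 (36 reads) were at 0 in both too. Kcna2 and Kcnab2 were each present in 1 of the 2. No Cre-negative library was included in the run-off experiment. Cacnb4 and Kcnab3 share 15.99% and 5.13% of their exon bases with genes on the other strand.

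In retina, 53 channel genes had a read and 51 of them had fewer with run-off (96.2%, Wilson 95% interval 87.2 to 99.0), beside 92.1% of all genes. Scaled to library totals, 40 of 53 were lower (75.5%), against 71.9% of all genes. Scn2b went from 5127 to 282 reads (5.50% left, 4.86 to 6.20), a smaller share than in SC. Kcnv2 went from 84 reads to 0, at least 28.0-fold lower, Kcnj14 from 157 to 20 reads (12.7% left), Cacna2d4 from 101 to 22 (21.8% left) and Cacna1f from 30 to 7 (23.3% left, 8.65 to 54.2).

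Kcnma1, the BK channel of amacrine and other retinal neurons, went from 178 to 2 reads (1.12% left, 0.135 to 4.12). Kcnab2 (246 reads), Kcnip1 (143) and Cacnb3 (95) were left with 0. Cacna1s, listed at 0 in all 24 FPKM libraries, had 81 reads without and 6 with run-off. Kcns2 had 54 reads with run-off and 0 without, and Cacna2d3 35 against 7 (interval of the ratio 2.19 to 13.3). Of the channel genes with 10 or more reads, 24 were found in SC, 36 in retina and 12 in both tissues.

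**Figure D5:**
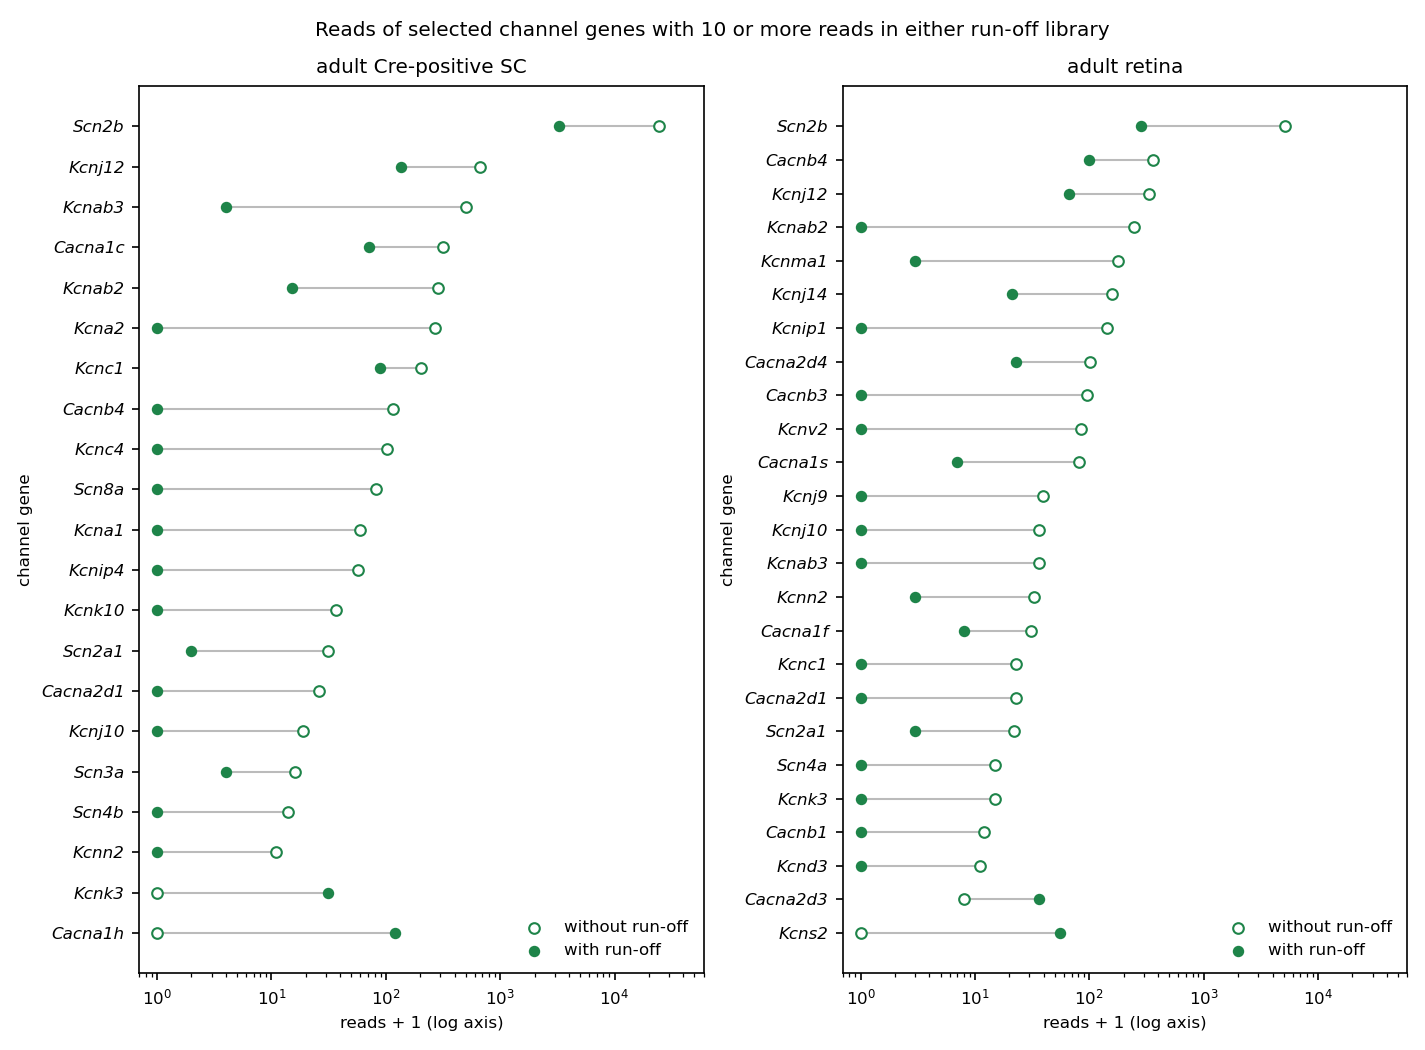
Reads (plus 1, log axis) of the channel genes described in the text with 10 or more reads in either library, without run-off (open circles) and with run-off (filled circles), in adult Cre-positive SC (21 genes) and adult retina (25 genes). Filled circles lie left of open ones for 19 and 23 genes, and 11 and 13 of them stand at 0 reads with run-off.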

How the data were processed

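Per the labels and the study's methods, 24 libraries were aligned by the authors (TopHat 2.0.12, mm10) and deposited as gene FPKM values computed by Cufflinks 2.2.1, with extra PCR rounds for SC. The 4 libraries of the run-off experiment were deposited as read counts per gene from HTSeq 0.6.1p1. The annotation and the use of strand are not given in the sources used here. GENCODE vM21 on GRCm38, the assembly of mm10, gave positions and exon overlaps.

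FPKM values were tested as log2(FPKM + 1) with limma 3.58.1 in R 4.3.3 (trend and robust moderation), on genes at 1 FPKM or more in at least 2 libraries of the fit, with two-sided p-values adjusted by Benjamini-Hochberg over all genes and a threshold of 0.05. The authors' own test, NOISeq, was not used. The 16 SC, 8 retina and all 24 libraries were 3 fits, and a standard error is pooled over its fit. Run-off reads were compared unscaled, without a test, with Wilson or exact 95% intervals (scipy 1.17.1).

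FPKM steps of genes with 1 transcript gave the estimated fragments per library. Scripts were tested on simulated data. Alternatives were another added value (0.1), no filter, median-ratio scaling, a replicate term, fits of 1 stage, and each replicate left out.

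Apart from some genes that are not reported here, the text names channel genes that passed a test, the 3 highest per group, those with 10 or more reads in SC run-off, and a list of known roles. Kcns2, Kcnip1 and the genes given as examples of those listed at 0 were named after their values were seen. The members and lists were chosen with earlier results of these data known. Of the 12 groups, titles round the ages of 9 down or up (E17, P1, P7).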

Additional observations from a re-analysis of the deposited data

Results flagged for a closer look

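The effect of Cre (Cre-positive minus Cre-negative SC) differed between neighbouring stages for 7 channel genes, of which 6 are given here, by an interaction term in limma on log2(FPKM + 1). From E17.5 to P0.5 it changed by 3.97 ± 0.86 for Kcnk3 (SE, adjusted p = 0.00592), by 3.21 ± 0.78 for Kcnk10 (SE, adjusted p = 0.0106) and by 3.18 ± 1.03 for the N-type calcium channel Cacna1b (SE, adjusted p = 0.0436). For the calcium channel subunit Cacna2d2 it changed by 2.43 ± 0.75 (SE, adjusted p = 0.0343), which came from a higher Cre-negative level at E17.5 and levels near 0 in both genotypes at P0.5. With the replicate number as a block, Cacna1b and Cacna2d2 lost these calls (adjusted p = 0.059 and 0.0588 in limma), and without any one of 6 of the 8 libraries both lost them too. Without either of the other 2, those of Cre-negative SC at E17.5, Cacna2d2 did not reach the level needed to be tested.

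In the opposite direction, the effect changed by -6.79 ± 1.03 for Kcns1 (SE, adjusted p = 0.000746) and by -6.37 ± 1.21 for Cacna1c (SE, adjusted p = 0.00277). Kcns1, Kcnk3 and Kcnk10 each passed the filter on low values mainly through the P0.5 libraries in which they were high. Cacna1b passed it through the 2 P0.5 Cre-positive libraries and 1 Cre-negative library of E17.5. Cacna2d2 did so through the 2 Cre-negative libraries of E17.5 alone. The changes of these genes were thus favoured by the filter, and their count supports nothing.

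From P0.5 to P7.5 the effect changed by -3.84 ± 0.86 for Kcnk3, -4.24 ± 0.78 for Kcnk10, 5.50 ± 1.03 for Kcns1 and 3.98 ± 1.21 for Cacna1c (SE, adjusted p = 0.0084, 0.00266, 0.00289 and 0.0385 in limma). At P7.5, Kcnk10 was at 3.04 FPKM in 1 Cre-negative library and at 0 in the other 3 SC libraries. The 2 sets of differences share the P0.5 libraries. Groups of 2 libraries are too small for a check of single outlying samples.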

How the results depend on the processing

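No result reversed under any alternative. Beside 5 channel genes called at P0.5 between the genotypes, the fit to the 4 SC libraries of the stage called 9 of the 14 it could test, beside 68% of all genes. The change of the Cre effect from P0.5 to P7.5 kept 2 calls in place of 4 with 0.1 added before the logarithm, and SC against retina at P0.5 gave 6 calls in place of 3 without the filter. Scaled to library totals, the share of channel genes with fewer reads after run-off was 63.9% in SC (80.6% unscaled) and 75.5% in retina (96.2%). With 1 replicate left out, the calls between genotypes ranged from 0 to 3 at E17.5, 3 to 4 at P0.5, 0 to 1 at P7.5 and 0 to 1 in adult SC. Calls within Cre-positive SC ranged from 2 to 6 (E17.5 to P0.5), from 2 to 4 (P0.5 to P7.5) and stayed at 0 afterwards. Calls for the change of the Cre effect ranged from 1 to 7 and from 0 to 5, those for later against perinatal retina from 0 to 1, and those for SC against retina from 0 to 5 at E17.5, 2 to 4 at P0.5, 0 to 2 at P7.5 and 0 to 1 in adult tissue. In each case an arm of 1 library is assumed to vary like the other groups. Same-numbered Cre-positive and Cre-negative libraries deviated together with correlations of 0.44, 0.43 and 0.385 at the 3 earlier stages and 0.0208 in the adult. The sources tie no number to a litter and the correlation was not above 0.1 at every stage, so the main tests have no block. With the replicate block, 6 channel genes were called at P0.5, with Scn2a1 added, and 5 in place of 7 for the change of the Cre effect from E17.5, without Cacna1b and Cacna2d2. Of the values for single genes, 43 of 146 lost their call with 1 replicate left out and 6 of 111 under the other alternatives. The causes were not tested. Depth limits the adult SC most: 3 fragments of a 2-kb transcript there equal up to 2.74 FPKM.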

Other observations

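Apart from Scn2b and Kcnj12, the summed level of channel genes was similar in range with and without tagged ribosomes. It lay between 16.6 and 167 FPKM in the Cre-positive SC libraries, between 12.3 and 202 FPKM in the Cre-negative ones, and between 4.59 and 32.6 FPKM in retina. Retina nevertheless listed the most channel genes above 0, up to 47 in a library, against 23 in SC of either genotype. It also listed more genes of any kind. The adult retina library with 47 channel genes had 8079 genes above 0. The P7.5 SC libraries with 23 had 3644 (Cre-positive) and 4008 (Cre-negative). The counts are thus not particular to channel genes.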
